A study of Rattus norvegicus with 6 samples.

Results

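The DNA replication and mitosis genes described here are 43 genes of the cell division cycle, chosen by name: the MCM helicase, the proteins that license replication origins, DNA polymerase alpha-primase and its clamp, enzymes of nucleotide supply, the cyclins and their kinases, 3 inhibitors of those kinases, and kinases, checkpoint proteins and motors of mitosis. Each gene was represented by the brightest probe that carried its symbol, and 42 of the 43 were found this way among 19297 gene symbols on the array, with no probe carrying the symbol Mki67. All 42 were well above background on all 6 arrays, so the filter on dim probes removed none. Heart primordia had been taken from Wistar rat embryos on embryonic day 10 and sorted by shape into a pre-heartbeat group, whose centre was flat, and a post-heartbeat group, whose centre was raised and whose embryos had slightly more somites. The labels name no treatment or genotype, and each group had 3 samples with 1 array each. The series names them biological replicates, and the number of embryos behind a sample was not given in the sources used here.

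Dividing cells copy their genome in S phase and separate the copies in mitosis. The MCM helicase is loaded at origins in G1 by ORC, CDC6 and CDT1, geminin then blocks a second loading, and D-type and E-type cyclins with their kinases release E2F factors from RB so that the genes of DNA synthesis are transcribed. Genes of mitosis are transcribed later, in G2, largely through CCAAT boxes and CHR elements bound by NF-Y and the DREAM and MuvB complexes. In the early heart tube, cells that form the first myocardium are known to slow their division while cells of the surrounding mesoderm keep dividing.

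The promoters of the genes were searched for the motifs of both groups. A RefSeq promoter window on GRCr8, from 250 bases before to 50 bases after the start, was given for 31 of the 43 genes. The E2F site was searched as TTTCCCGC, TTTCGCGC, TTTGCCGC or TTTGGCGC, the CCAAT box as CCAAT and the CHR element as TTTGAA, on both strands, and matches of opposite strands that overlap were kept. An E2F site was present in 9 of 12 replication genes (MCM, licensing, polymerase and nucleotide genes) and in 1 of 12 mitotic genes (S to M cyclins, Cdk1 and mitotic genes), beside 2.14% of all 33469 promoters. A CHR element was present in 1 of 12 replication genes and 8 of 12 mitotic genes, beside 18.3% of all promoters. A CCAAT box was present in 9 of 12 and 9 of 12, beside 37.5% of all. Among the further replication and mitosis genes listed below, the windows held an E2F site in 15 of 81, a CCAAT box in 48 of 81 and a CHR element in 35 of 81. These matches describe letters in a window and are no evidence of binding. Windows of 2 helicase subunits and of 2 genes of mitotic entry are printed to show both layouts, with E2F sites, CCAAT boxes and CHR elements in capitals. Mcm3 (chr9:30733697-30733996, minus strand) and Mcm7 (chr12:22163129-22163428, minus strand) carry E2F sites and CCAAT boxes, Cdk1 (chr20:19265043-19265342, plus strand) carries all 3 motifs, and Ccnb2 (chr8:79981609-79981908, minus strand) carries CCAAT boxes and CHR elements.
Mcm3: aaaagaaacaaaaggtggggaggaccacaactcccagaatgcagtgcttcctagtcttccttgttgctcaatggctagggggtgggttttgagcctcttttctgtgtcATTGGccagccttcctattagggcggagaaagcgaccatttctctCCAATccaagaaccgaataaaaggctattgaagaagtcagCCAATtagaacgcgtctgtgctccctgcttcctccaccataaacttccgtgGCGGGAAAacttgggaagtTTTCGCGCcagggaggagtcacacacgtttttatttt
Mcm7: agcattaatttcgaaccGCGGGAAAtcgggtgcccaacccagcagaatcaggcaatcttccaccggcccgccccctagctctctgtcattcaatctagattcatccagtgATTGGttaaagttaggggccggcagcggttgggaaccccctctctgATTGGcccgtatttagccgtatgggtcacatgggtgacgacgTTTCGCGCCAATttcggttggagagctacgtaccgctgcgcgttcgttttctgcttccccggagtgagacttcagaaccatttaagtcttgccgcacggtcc
Cdk1: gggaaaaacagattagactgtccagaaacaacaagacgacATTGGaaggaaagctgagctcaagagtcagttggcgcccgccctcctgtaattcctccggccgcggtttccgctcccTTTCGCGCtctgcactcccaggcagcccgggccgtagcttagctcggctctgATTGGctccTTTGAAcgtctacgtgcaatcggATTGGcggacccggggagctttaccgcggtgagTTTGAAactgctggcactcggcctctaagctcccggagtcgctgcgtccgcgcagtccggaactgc
Ccnb2: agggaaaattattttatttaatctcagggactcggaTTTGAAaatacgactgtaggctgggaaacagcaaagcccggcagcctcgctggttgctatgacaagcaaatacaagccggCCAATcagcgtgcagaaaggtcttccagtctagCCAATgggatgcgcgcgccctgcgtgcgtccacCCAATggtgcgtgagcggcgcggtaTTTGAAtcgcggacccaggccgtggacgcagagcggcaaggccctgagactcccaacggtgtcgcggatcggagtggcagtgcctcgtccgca

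Most of the 42 genes differed little between the groups, and Cdkn1c, an inhibitor of cyclin-dependent kinases, differed the most. Values are log2 processed signals less the 75th percentile of the array, so that 0 is the 75th percentile, and a difference is post-heartbeat minus pre-heartbeat. By limma with Benjamini-Hochberg adjustment over 19299 tested probes, 0 of the 42 passed an adjusted p of 0.05 upward and 0 passed it downward, beside 0.124% and 0.0207% of all tested probes. At an unadjusted limma p under 0.05 there were 2, Cdkn1c and Orc1, beside 7% of all tested probes, and the pooled test of the methods called 0 after Benjamini-Hochberg adjustment. The study selected genes by a Tukey HSD test (unadjusted p under 0.05) together with a minimum change of 1.5 fold, and this selection took Cdkn1c as higher, which is 1 of 42 beside 1.9% of all tested probes, and took 0 as lower beside 1.16%. With 3 arrays against 3, an exact permutation test of a single gene cannot give a p below 0.1.

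The direction of the small differences was mostly downward. The mean was lower in the post-heartbeat group for 31 of 42 genes, beside 55.3% of all tested probes, and the median difference was -0.084, beside -0.033 for all. Without pre-heartbeat replicate 2 the lower genes numbered 25 and the median was -0.041, and without pre-heartbeat replicate 1 the median was -0.16. The share and median of all tested probes without these arrays were not computed, so the values above do not serve for comparison here. The differences of most genes were also bounded. The 95% interval of the limma fit lay within 1.5 fold in either direction for 25 of 42 genes, beside 43.2% of all tested probes. For the topoisomerase gene Top2a, for example, the ratio of post-heartbeat to pre-heartbeat signal was 0.96 with an interval from 0.777 to 1.19. A second, dimmer Top2a probe was less precise, with a difference of -0.17 (SE 0.27), or 0.045 with the slide as a block. The spread between arrays of a group (pooled SD) had a median of 0.18 over the 42 genes, beside 0.23 over all tested probes, and was lowest for Ccne1 and highest for Cdt1.

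**Figure D1:**
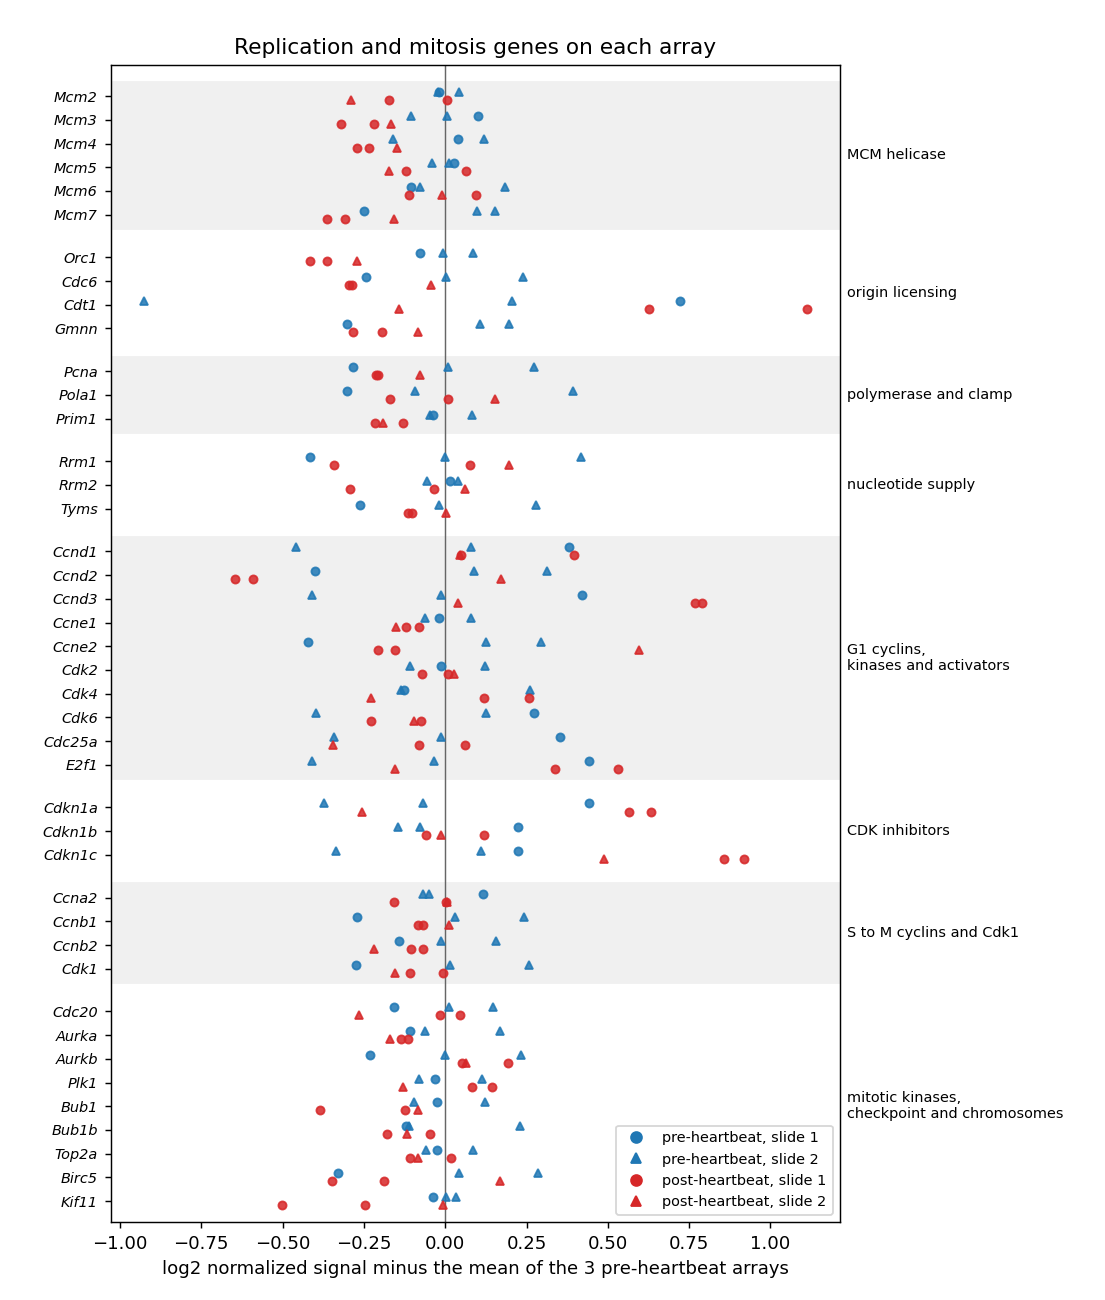
Log2 normalized signal of each of the 42 genes on each array, minus the mean of its 3 pre-heartbeat arrays, by role, with circles for slide 1 and triangles for slide 2 and colors for the group. The 3 post-heartbeat values of Cdkn1c lie to the right of all its pre-heartbeat values, while for most other genes the colors overlap.

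The arrays came from 2 slides, read from the array barcode. Of the pre-heartbeat samples, replicate 1 was on slide 1 and replicates 2 and 3 on slide 2, and of the post-heartbeat samples, replicates 1 and 2 were on slide 1 and replicate 3 on slide 2. The first principal component over the 42 genes carried 71.2% of the variance and separated the slides, as did that over all tested probes with 60.2%. The pre-heartbeat replicate 2 array gave the highest value for 25 of 42 genes, beside 38.5% of all tested probes. Processed signals at the 75th percentile were between 1143 and 1694 intensity units, and 0 spots were saturated. The tissue label was checked with markers. All 10 cardiomyocyte markers were above background, with a mean level between 4.23 and 4.69 on pre-heartbeat arrays and between 5.25 and 5.31 on post-heartbeat arrays, and all 10 were higher in the latter. None of the 10 passed the limma threshold, and 4 passed it with the slide as a block. Several markers of other cell types had lower signals in the post-heartbeat group, and others had higher signals. Otx2, a gene of anterior neural ectoderm, fell by 1.56, with an adjusted limma p of 0.0201 and the groups apart, and no other marker passed the limma threshold. The groups were also apart, and lower post-heartbeat, for the endothelial Kdr (-0.55), the yolk sac gene Ttr (-0.58) and the endodermal Epcam (-0.42), and apart but higher for the paraxial Tcf15 (0.19) and Pax3 (0.12). The mean was higher for 1 of 3 tested neural, 1 of 6 endothelial, 1 of 3 erythroid, 0 of 3 foregut, 2 of 5 yolk sac, 2 of 5 second heart field and 3 of 3 paraxial mesoderm markers. The mean level of the list on each array was taken over all its markers with a probe, tested or not. It was -2.75 to -1.89 pre-heartbeat and -3.34 to -2.56 post-heartbeat for neural ectoderm. It was -0.80 to -0.37 pre-heartbeat and -0.86 to -0.61 post-heartbeat for endothelium. It was -3.00 to -2.98 pre-heartbeat and -3.23 to -3.17 post-heartbeat for foregut endoderm, and 0.057 to 1.31 pre-heartbeat and -0.030 to 0.88 post-heartbeat for yolk sac endoderm. For second heart field it was -2.80 to -1.78 pre-heartbeat and -2.90 to -1.82 post-heartbeat. For paraxial mesoderm it was -2.41 to -2.17 pre-heartbeat and -2.77 to -2.06 post-heartbeat. For erythroid markers it was -5.98 to -5.18 pre-heartbeat and -6.05 to -5.43 post-heartbeat. The erythroid Gata1 and Hbe1 and the endodermal Shh were not well above background on any array, and Pax6, Uncx and Meox1 were well above background on 1 array each. As this is bulk tissue, fewer cells of a type and less RNA per cell cannot be told apart, and the part of the cell type makeup in the differences below was not tested.

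The 6 subunits of the MCM2-7 helicase, which unwinds DNA at replication forks, all had a lower mean in the post-heartbeat group, by -0.00873 for Mcm6 to -0.28 for Mcm7, except that Mcm6 had a difference of 0.017 with the slide as a block and was also above 0 with quantile normalization. None of the 6 passed the limma threshold. The signal of Mcm3 was 4.35, 4.26 and 4.15 on pre-heartbeat arrays 1, 2 and 3 and 3.93, 4.03 and 4.09 on post-heartbeat arrays 1, 2 and 3. All post-heartbeat values of Mcm3 lay below all pre-heartbeat values, with a difference of -0.23 (SE 0.13) and an adjusted limma p of 0.864, but with quantile normalization the groups overlapped. A second, dimmer Mcm3 probe did the same, with a difference of -0.25. The signal of Mcm7 was 4.24, 4.64 and 4.58 on pre-heartbeat arrays 1, 2 and 3 and 4.12, 4.18 and 4.33 on post-heartbeat arrays 1, 2 and 3. Here the highest post-heartbeat value exceeded the lowest pre-heartbeat value, which was that of slide 1, and the difference of -0.28 (SE 0.16) became -0.18 with the slide as a block. Mcm4, Mcm2 and Mcm5 had differences of -0.22, -0.15 and -0.077.

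Origin licensing was represented by Orc1, the largest subunit of the origin recognition complex, by the loaders Cdc6 and Cdt1, and by Gmnn (geminin), which binds and inhibits CDT1. The signal of Orc1 was 0.60, 0.76 and 0.67 on pre-heartbeat arrays 1, 2 and 3 and 0.31, 0.26 and 0.40 on post-heartbeat arrays 1, 2 and 3. The groups did not overlap, and the difference was -0.35 (SE 0.13), with -0.31 within slide 1 and -0.31 within slide 2. It had an unadjusted limma p of 0.0316 and an adjusted p of 0.611. In rn4 the Orc1 probe covers 129901584 to 129901643 of chromosome 5 (plus strand). Cdc6 and Gmnn had differences of -0.21 and -0.19, and their groups overlapped. With the slide as a block these were -0.11 and -0.085, and leaving out an array gave -0.33 to -0.088 for Cdc6 and -0.34 to -0.089 for Gmnn. Cdt1 was dim and variable, with signals of -2.40, -4.05 and -2.92 on pre-heartbeat arrays 1, 2 and 3 and -2.01, -2.49 and -3.26 on post-heartbeat arrays 1, 2 and 3. Its values were high on the 3 arrays of slide 1, and the difference of 0.53 (SE 0.48) was 0.18 with the slide as a block and 0.069 without pre-heartbeat replicate 2.

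Genes of DNA synthesis had small differences. Prim1, the catalytic subunit of primase, had 3 post-heartbeat values below all pre-heartbeat values with a difference of -0.18 (SE 0.13), while Pola1, the catalytic subunit of polymerase alpha, differed by -0.00265 and Pcna, the sliding clamp, by -0.17. The difference of Pcna was -0.073 with the slide as a block, and -0.31 to -0.029 when an array was left out. The ribonucleotide reductase subunits Rrm1 and Rrm2 differed by -0.023 and -0.089, and Tyms, which makes thymidylate, by -0.070. The 95% intervals of Rrm2 (-0.44 to 0.26) and Tyms (-0.48 to 0.34) lay within 1.5 fold. None of these 6 genes passed the limma threshold.

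Among the G1 regulators, the D-type cyclins had differences of opposite sign, and the values of Ccnd2 and Ccnd3 moved with the slide. Ccnd2, which pairs with CDK4 and CDK6, had signals of 1.03, 1.52 and 1.75 on pre-heartbeat arrays 1, 2 and 3 and 0.85, 0.79 and 1.61 on post-heartbeat arrays 1, 2 and 3. The 3 arrays of slide 2 were high and the 3 of slide 1 low, the groups overlapped, and the difference of -0.35 (SE 0.28) shrank to -0.12 with the slide as a block. Ccnd3, another partner of these kinases, had signals of 1.73, 0.90 and 1.30 on pre-heartbeat arrays 1, 2 and 3 and 2.10, 2.08 and 1.35 on post-heartbeat arrays 1, 2 and 3. It was high on slide 1, and the difference of 0.53 (SE 0.29) was 0.30 with the slide as a block, with 0.36 and 0.25 within slides 1 and 2. Ccnd1 differed by 0.16 (SE 0.24), or by 0.039 with the slide as a block. Ccne1, a cyclin of the G1 to S step, had the lowest spread of the list, and its 3 post-heartbeat values lay just below all pre-heartbeat values with a difference of -0.12 (SE 0.13). Its paralog Ccne2 differed by 0.078 without and 0.31 with the slide as a block.

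E2f1, a transcription factor of S phase genes, had signals of -0.00249, -0.85 and -0.48 on pre-heartbeat arrays 1, 2 and 3 and 0.086, -0.11 and -0.60 on post-heartbeat arrays 1, 2 and 3. Its difference of 0.24 (SE 0.27) was 0.029 with slide in the fit. The kinases Cdk2, Cdk4 and Cdk6 differed by -0.012, 0.049 and -0.13, and Cdc25a, the phosphatase that activates CDK2, by -0.12. In all, 5 of these 10 G1 genes had a higher and 5 a lower mean, and 0 of 10 passed the limma threshold.

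Of the 3 CDK inhibitors, Cdkn1c had a difference larger than that of any other gene of the list. Cdkn1c, an imprinted inhibitor that restrains division in many embryonic tissues, had signals of 4.62, 4.06 and 4.51 on pre-heartbeat arrays 1, 2 and 3 and 5.25, 5.32 and 4.88 on post-heartbeat arrays 1, 2 and 3. All 3 post-heartbeat values lay above all pre-heartbeat values, with means of 4.40 ± 0.30 pre-heartbeat and 5.15 ± 0.23 post-heartbeat (SD, n = 3). This is a ratio of 1.69 with a 95% interval from 1.21 to 2.36, and the difference of 0.76 (SE 0.20) had an adjusted limma p of 0.326, an unadjusted limma p of 0.00773 and an exact permutation p of 0.1. It was 0.66 within slide 1 and 0.60 within slide 2, and 0.63 after fitting the slide, at an adjusted limma p of 0.136 (range over all alternatives 0.136 to 1). A second Cdkn1c probe, for another transcript, had signals of 2.69, 2.10 and 2.85 on pre-heartbeat arrays 1, 2 and 3 and 3.45, 3.45 and 3.28 on post-heartbeat arrays 1, 2 and 3. Its groups did not overlap either, and its difference was 0.85. In rn4 the first probe covers 203835291 to 203835350 of chromosome 1 (minus strand). Cdkn1c left the selection of the methods without pre-heartbeat replicate 3, without post-heartbeat replicate 1 and without post-heartbeat replicate 2, and its difference was between 0.59 and 0.89 when each array in turn was left out.

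The other members of the same family differed less. Cdkn1a, which p53 induces, had signals of 3.92, 3.41 and 3.11 on pre-heartbeat arrays 1, 2 and 3 and 4.11, 4.05 and 3.22 on post-heartbeat arrays 1, 2 and 3. It was high on the 3 arrays of slide 1, and the difference of 0.31 (SE 0.31) was 0.061 with the slide as a block. Cdkn1b differed by 0.016 (SE 0.15), with a 95% interval of -0.35 to 0.38 that lay within 1.5 fold.

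**Figure D2:**
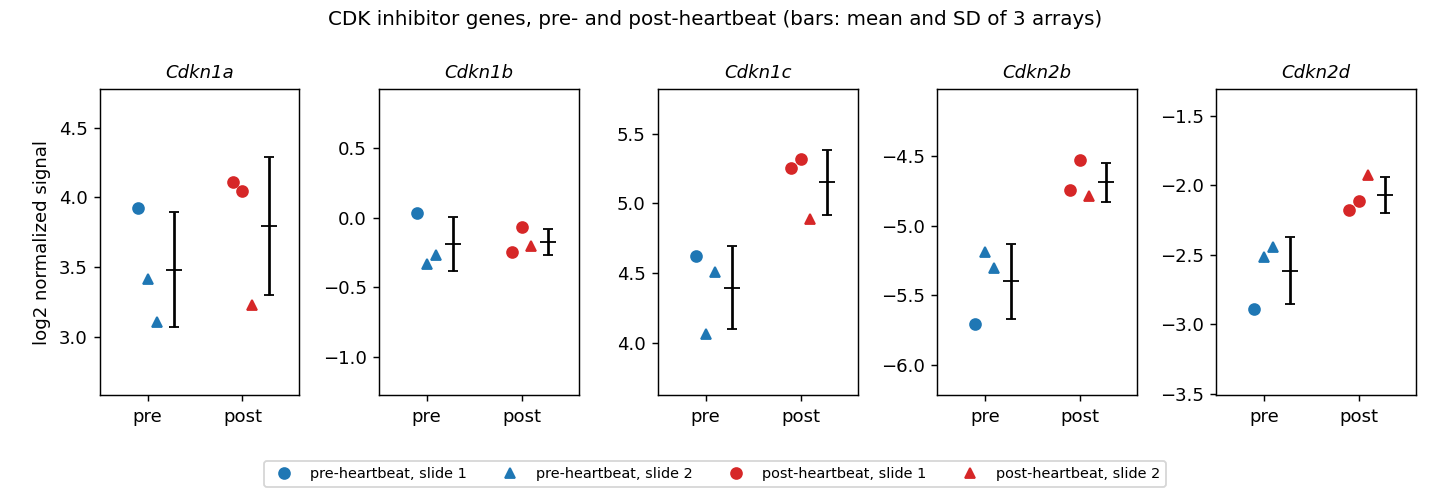
Log2 normalized signal of 5 CDK inhibitor genes on each array, with the mean and SD of each group and circles and triangles for slides 1 and 2; the panels span the same number of log2 units. The groups do not overlap for Cdkn1c, Cdkn2b and Cdkn2d, and overlap for Cdkn1a and Cdkn1b. Cdkn2b and Cdkn2d come from the further G1 and RB-E2F list. There they are the only 2 of 16 tested genes whose groups do not overlap, beside 5.38% of all tested probes apart and higher. Cdkn2d was singled out after its values were seen.

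The cyclins and the kinase that drive entry into mitosis had small differences between the groups. Ccna2 differed by -0.050, Ccnb1 by -0.046, Ccnb2 by -0.13 and their kinase Cdk1 by -0.089, and all 4 intervals lay within 1.5 fold, with the widest for Cdk1 (-0.49 to 0.32). Genes that act in mitosis itself had differences from -0.25 to 0.10 in 9 genes, 7 of them with a lower mean. Kif11, the motor that pushes spindle poles apart, had signals of 1.15, 1.19 and 1.22 on pre-heartbeat arrays 1, 2 and 3 and 0.68, 0.94 and 1.18 on post-heartbeat arrays 1, 2 and 3. The pre-heartbeat values lay close together and the post-heartbeat value of slide 2 lay among them, with a difference of -0.25 (SE 0.16) and an adjusted limma p of 0.864. Aurka, a kinase of spindle poles, had 3 post-heartbeat values just below all pre-heartbeat values with a difference of -0.14, a separation lost with the slide as a block and with the ratios of the authors. The checkpoint kinases Bub1 and Bub1b differed by -0.20 and -0.11, and the chromosomal passenger genes Aurkb and Birc5 by 0.10 and -0.12. Cdc20, an activator of the anaphase-promoting complex, differed by -0.079, Plk1 by 0.032 and Top2a, which untangles sister chromatids, by -0.058.

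Over the list, the groups did not overlap in 6 genes. Mcm3, Orc1, Prim1, Ccne1 and Aurka were lower, 5 of 42 beside 6.17% of all tested probes, and Cdkn1c was higher, 1 of 42 beside 5.38%. Leaving out an array can only raise this count, as fewer values have to separate. It was 16 without pre-heartbeat replicate 1 and 14 without post-heartbeat replicate 3. The shares of all tested probes in these settings were not counted. A second probe was present for 10 genes, and its difference had the same sign as that of the first in 8. The exceptions were Ccna2 and Rrm2, whose differences were near 0.

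**Figure D3:**
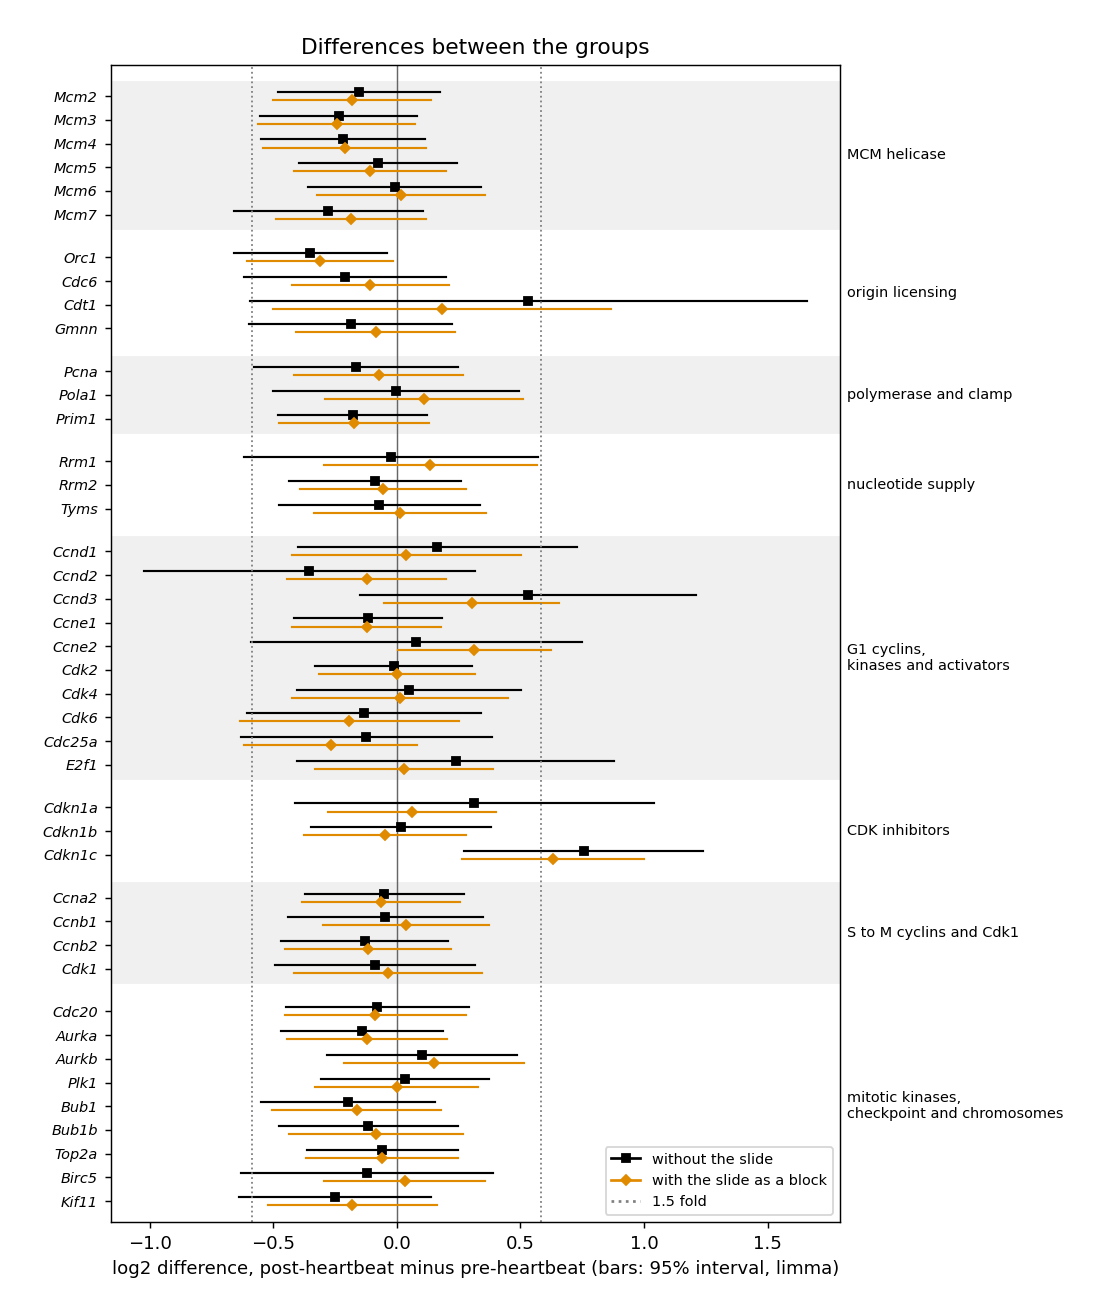
Log2 difference, post-heartbeat minus pre-heartbeat, of the 42 genes by role, with 95% intervals of the limma fit, without (black) and with (orange) the slide as a block; dotted lines mark 1.5 fold. Without the slide, only the intervals of Orc1 and Cdkn1c exclude 0.

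With the slide as a block, 0 genes of the list were higher and 0 lower at an adjusted limma p under 0.05, beside 1.09% and 0.42% of all tested probes. Unadjusted limma p was under 0.05 for Orc1, Ccne2 and Cdkn1c, 3 of 42 beside 9.63% of all. The mean was lower in 26 of 42, beside 54.3% of all tested probes, with a median difference of -0.061. The slides themselves differed in 6 genes. At an adjusted limma p under 0.05, Cdt1, Ccnd3, E2f1 and Cdkn1a were higher on slide 1 by 1.05, 0.69, 0.63 and 0.76, 4 of 42 beside 8.68% of all tested probes. Ccnd2 and Ccne2 were lower on slide 1, with differences of -0.70 and -0.70, 2 of 42 beside 7.43%. Both counts were near the shares of all tested probes, and no pattern by role was tested. By role, 5 of these 6 genes are G1 cyclins and activators or CDK inhibitors, roles that hold 10 and 3 of the 42 genes. The other, Cdt1, licenses origins. The part of the slide in the group differences of these 6 genes was not separated beyond the values with the block given above.

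**Figure D4:**
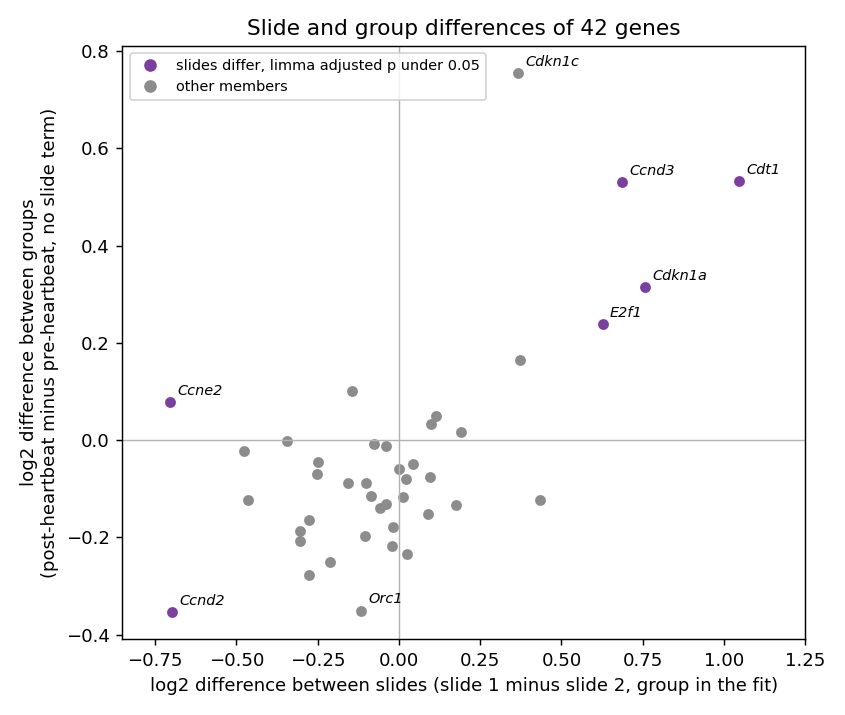
Log2 difference between the slides (slide 1 minus slide 2, fitted with the group) against the log2 difference between the groups (fitted without the slide) for the 42 genes; purple points differ between the slides at an adjusted limma p under 0.05. All 4 purple points to the right of 0 lie above 0 on the group axis, and Cdkn1c, in gray, lies highest. Most arrays of slide 1 are post-heartbeat, so part of a slide difference enters the group axis through the layout. The axes are therefore not independent, and the position of the purple points is no separate result.

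A wider list of 92 other replication and mitosis genes, of which 88 were on the array and tested, also showed small differences, most of them downward. At an adjusted limma p under 0.05, 0 were higher and 0 lower, beside 0.124% and 0.0207% of all tested probes. An unadjusted limma p under 0.05 was found for 0, beside 7% of all tested probes. The mean was lower in the post-heartbeat group for 40 of 42 further replication genes and 38 of 46 further mitosis genes, with medians of -0.15 and -0.13. Of all tested probes 55.3% had a lower mean, with a median of -0.033. The groups did not overlap in 15 of 88, all lower, beside 6.17% of all tested probes. With the slide as a block the lower genes were 70 of 88, beside 54.3% of all tested probes. The median of the 88, -0.15, became -0.10 with that block. It was -0.065 without pre-heartbeat replicate 2 and -0.23 without pre-heartbeat replicate 1, and the median of all tested probes was not computed for these. The 95% interval lay within 1.5 fold for 60 of 88, beside 43.2% of all tested probes.

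The 3 lowest differences in this list were those of Smc2, Cenpe and Hmmr. Smc2, a core subunit of condensin, had signals of -3.45, -2.57 and -2.83 on pre-heartbeat arrays 1, 2 and 3 and -3.77, -3.70 and -3.06 on post-heartbeat arrays 1, 2 and 3, with a difference of -0.56 (SE 0.29). Cenpe, a kinetochore motor, had signals of -1.92, -1.04 and -1.46 on pre-heartbeat arrays 1, 2 and 3 and -2.17, -2.42 and -1.49 on post-heartbeat arrays 1, 2 and 3, with a difference of -0.56 (SE 0.31). Hmmr, a spindle protein, had signals of -3.54, -2.61 and -3.14 on pre-heartbeat arrays 1, 2 and 3 and -3.75, -3.71 and -3.18 on post-heartbeat arrays 1, 2 and 3, with a difference of -0.45 (SE 0.28). In all 3 the groups overlapped, values were low on slide 1, and the slides differed at an adjusted limma p of 0.0152, 0.0247 and 0.0494. With the slide as a block their differences were -0.32, -0.31 and -0.25, and when an array was left out they were -0.81 to -0.37 for Smc2, -0.82 to -0.34 for Cenpe and -0.67 to -0.21 for Hmmr.

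**Figure D5:**
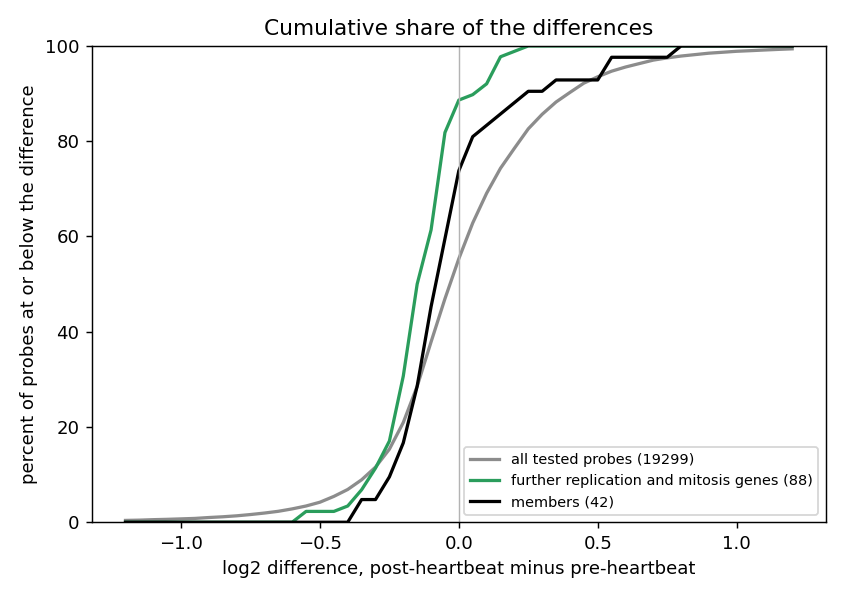
Cumulative percent of probes at or below each log2 difference (post-heartbeat minus pre-heartbeat) for all tested probes, the 42 genes and the 88 further replication and mitosis genes. The curves of both gene lists rise steeply just below 0, with 73.8% of the 42 and 88.6% of the 88 at or below 0, against 55.3% of all tested probes.

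Further regulators upstream of the cell cycle were also read. Of 16 tested genes of the G1 and RB-E2F list, 8 had a higher and 8 a lower mean, and 0 passed the limma threshold. The groups did not overlap in 2 of the 16, both higher, beside 5.38% of all tested probes. Cdkn2b, an inhibitor of CDK4 and CDK6, was dim but above background on all arrays, with signals of -5.71, -5.19 and -5.31 on pre-heartbeat arrays 1, 2 and 3 and -4.75, -4.53 and -4.79 on post-heartbeat arrays 1, 2 and 3. Its groups did not overlap, and the difference of 0.71 (SE 0.18) had an adjusted limma p of 0.283, and 0.0978 with the slide as a block (range over all alternatives 0.0978 to 0.962). Cdkn2d, an inhibitor of the same kinases that was singled out after its values were seen, had signals of -2.89, -2.51 and -2.44 on pre-heartbeat arrays 1, 2 and 3 and -2.18, -2.11 and -1.93 on post-heartbeat arrays 1, 2 and 3. Its groups did not overlap, with a difference of 0.54 (SE 0.17) and an adjusted limma p of 0.441. Of 13 tested p53 targets, 6 had a higher and 7 a lower mean. Perp, a p53 target and desmosome protein, had signals of 0.47, 0.27 and 0.47 on pre-heartbeat arrays 1, 2 and 3 and 1.34, 1.73 and 1.68 on post-heartbeat arrays 1, 2 and 3. Its difference of 1.19 (SE 0.16) had an adjusted limma p of 0.0704, and 0.0197 with the slide as a block, in which fit Perp rose (range over all alternatives 0.0197 to 0.37). Phlda3, a p53 target that restrains AKT, had signals of -3.10, -3.51 and -3.16 on pre-heartbeat arrays 1, 2 and 3 and -2.04, -2.41 and -2.80 on post-heartbeat arrays 1, 2 and 3, with a difference of 0.84 (SE 0.23) and an adjusted limma p of 0.326.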

How the data were processed

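RNA of rat heart primordia on embryonic day 10 was labeled by the authors with cyanine-3, hybridized to 1-color Agilent rat arrays (3 pre-heartbeat and 3 post-heartbeat, grouped by their titles) and quantified, per the labels, with Agilent Feature Extraction 10.7.3.1. The deposited processed signal is an intensity of each spot after background subtraction, not normalized between arrays. The authors also deposited ratios to a baseline, made in GeneSpring after a 75th percentile shift, which were used as an alternative.

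Control spots and outlier spots were left out, log2 intensities were shifted by the 75th percentile of the remaining spots of each array, and spots of a probe were averaged. A probe was tested if 1 group or both had it well above background throughout (19299 of 30367 probes). limma 3.58.1 in R 4.3.3 (lmFit and eBayes) was used, with Benjamini-Hochberg adjustment and a threshold of 0.05. The number of arrays limits the precision. Scripts were tested on simulated data. Symbols were matched ignoring case, probe positions are those of the array annotation (rn4), and promoters are from RefSeq on GRCr8. The members and lists were chosen with earlier results of these data known. All 42 measured genes are named, and values on every array are given for genes past the limma threshold, in the selection of the methods or at an unadjusted p under 0.05, and for the 5 largest differences each way (in the further lists, past the limma threshold, in the selection or among the 3 largest each way). Alternatives were the slide or replicate number as a block, normexp with an offset of 50, quantile normalization, other percentiles and filters, the ratios of the authors, an intensity trend, the mean of a gene's probes, a threshold of 2 fold, the moderated p for the selection, the pooled test with adjustment, and leaving out each array. The percentile with outlier spots included was chosen after seeing the data.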

Additional observations from a re-analysis of the deposited data

How the results depend on the processing

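Counts at an adjusted limma p under 0.05 were 0 in each direction for the 42 genes and the 88 further genes in every alternative run, including leaving out each array, and 0 for the 42 by the methods' test with Benjamini-Hochberg adjustment. Higher genes in the selection of the methods numbered 1, against 0 with a fold threshold of 2 and 0 with the replicate number as a block, and between 0 and 1 when an array was left out; lower genes were 0 in all. Genes whose groups do not overlap numbered 6, against 10 with the slide as a block, 13 with the replicate block, 7 to 16 when an array was left out, and 5 with quantile normalization, without Mcm3. The share of all tested probes in each of these settings was not counted, so no share stands beside these numbers. Deviations from the group means correlated at 0.65, -0.28 and 0.49 between samples of the same replicate number, and not every sample correlated best with its own number. Between the groups, all correlations were positive within a slide and negative across slides. They follow the slide, so they cannot show whether the replicate numbers pair the samples, and the numbers were not taken as pairs. The replicate block changed no other count of the lists. Probes called over the whole array at an adjusted limma p under 0.05 numbered 28, against 292 with the slide as a block, 166 with the replicate block, 49 with normexp, 14 with quantile normalization, 1 with no filter, 13 with the ratios of the authors, 45 with an intensity trend, and 0 to 2 when an array was left out, and 0 by the methods' test with adjustment. The median of the 42 genes was between -0.16 and -0.041, and that of the 88 between -0.23 and -0.065, when an array was left out. The median of all tested probes was not computed for these. The counts between the slides moved by no more than 1.5 times. Of 528 values of 48 named genes under other settings, 12 had the opposite sign. With the slide as a block these were Birc5 (0.033), Ccnb1 (0.037), Cdk2 (0.000804), Cdkn1b (-0.047), Mcm6 (0.017), Plk1 (-0.000234), Pola1 (0.11), Rrm1 (0.14) and Tyms (0.014). The others were Cdkn1b with normexp (-0.000552) and with the ratios of the authors (-0.00197), and Mcm6 with quantile normalization (0.017). Leaving out an array turned the sign of 20 genes, with ranges for Aurkb from -0.014 to 0.22, Birc5 from -0.29 to 0.021, Bub1b from -0.17 to 0.00084, Ccna2 from -0.083 to 0.00793, Ccnb1 from -0.18 to 0.075, Ccnd1 from -0.065 to 0.35, Ccne2 from -0.18 to 0.23, Cdc20 from -0.16 to 0.014, Cdc25a from -0.29 to 0.055, Cdk1 from -0.23 to 0.040, Cdk2 from -0.066 to 0.049, Cdk4 from -0.055 to 0.19, Cdk6 from -0.33 to 0.00315, Cdkn1b from -0.056 to 0.13, Mcm6 from -0.061 to 0.083, Plk1 from -0.024 to 0.11, Pola1 from -0.15 to 0.19, Rrm1 from -0.23 to 0.19, Rrm2 from -0.16 to 0.012 and Tyms from -0.20 to 0.070. The cause was not tested. Perp passed the limma threshold in 4 settings. The percentile with outlier spots included, chosen after seeing the data, separated the groups of 5 genes, without Aurka, and changed no call. The number of arrays limits all of these, and Cdt1, Cdk6, Pola1, Smc2, Hmmr, Phlda3, Cdkn2b and Cdkn2d were dim.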
